A study of Homo sapiens with 6 samples.

Results

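The Eph receptors are the largest family of receptor tyrosine kinases, and 10 of the 26364 genes in the deposited count table are described here: EPHA1, EPHA2, EPHA3, EPHA4, EPHA5 and EPHA7 of the A class and EPHB2, EPHB3, EPHB4 and EPHB6 of the B class. They were listed by symbol around EPHA5, which was chosen by its measured log2 difference between ETV4 knockout clones and the parental line, the largest fall among genes that averaged 2 CPM or more (CPM are read counts scaled to library size). ETV4 is an ETS transcription factor of the PEA3 group. The cells were Ishikawa, an established line from an endometrial adenocarcinoma that carries estrogen receptor. The 6 RNA-seq libraries came from 3 lines, parental Ishikawa and the knockout clones labelled ETV4 KO clone 1 and ETV4 KO clone 2, with 1 library per line in vehicle (0.1% DMSO) and 1 in 10 nM 17β-estradiol (E2). All 3 lines had spent 5 days in hormone-depleted medium before treatment. The treatment time is 8 h in the protocol and 1 h in the sample characteristics, so it is left undecided. Each knockout line is a clone and the parental line gave 1 library per treatment, so that loss of ETV4 and differences between clones that existed for other reasons cannot be told apart.

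Eph receptors sit in the plasma membrane and bind ephrins, which are themselves anchored to the surface of neighbouring cells, so signalling needs cell contact and can run into both cells. A-class receptors mostly bind ephrin-A ligands, held by a lipid anchor, and B-class receptors mostly bind transmembrane ephrin-B ligands, with EPHA4 binding both classes. The outcome is usually repulsion or sorting of cells through changes in the actin cytoskeleton, as in axon guidance, and in epithelia the receptors act at cell junctions.

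The libraries held 28037392 to 36829479 counts, and 17755 to 18658 genes had a count. The targeted gene ETV4 had 586 and 1063 counts in the parental libraries (DMSO and E2) and 71 to 122 counts in the 4 clone libraries, so its mRNA was lower but not absent in both clones. All 8 epithelial markers examined averaged 2 CPM or more, and their summed level was 2419 to 3324 CPM. Of 8 fibroblast or stromal markers 2 reached that mean, as did 1 of 4 endothelial, 1 of 5 leukocyte and 1 of 5 neuronal markers, and the leukocyte marker CD3E was at 0 in every library. The neuronal sum, 42.8 to 178 CPM in clone libraries and 23.2 to 56.8 CPM in parental ones, was almost all MAP2 (39.2 to 177 and 21.2 to 54.4 CPM), a gene for a microtubule protein. The other 4 neuronal markers, SNAP25, SYT1, RBFOX3 and STMN2, stayed under 3 CPM and overlapped between clone and parental libraries, and the part of MAP2-expressing cells in the receptor values was not tested. A trend with GC content touches the E2 results, and its cause was not tested. In the parental line the median log2 difference between E2 and DMSO rose with GC content. It went from -0.29 in the fifth of genes with the lowest GC content to 0.37 in the fifth with the highest. The same medians went from -0.04 to 0.10 in clone 1 and from 0.04 to 0.00396 in clone 2.

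The DNA upstream of the 3 receptors whose mRNA differed most between lines is shown as the 250 bases before a RefSeq start (GRCh38.p14), 5′ to 3′ on the gene's own strand. EPHA5 is shown because it was nearly lost in both clones, EPHA3 because it was lower in all clone libraries, and EPHA4 because it separated the clones. Capitals mark GGAA or its reverse complement TTCC, the core that ETS factors recognise.
EPHA5, chr4:65670490-65670739, minus strand: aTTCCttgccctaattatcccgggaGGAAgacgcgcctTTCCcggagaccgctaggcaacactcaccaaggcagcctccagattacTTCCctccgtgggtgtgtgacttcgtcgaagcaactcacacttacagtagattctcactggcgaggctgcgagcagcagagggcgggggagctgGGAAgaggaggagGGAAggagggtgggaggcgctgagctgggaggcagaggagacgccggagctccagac
EPHA3, chr3:89107371-89107620, plus strand: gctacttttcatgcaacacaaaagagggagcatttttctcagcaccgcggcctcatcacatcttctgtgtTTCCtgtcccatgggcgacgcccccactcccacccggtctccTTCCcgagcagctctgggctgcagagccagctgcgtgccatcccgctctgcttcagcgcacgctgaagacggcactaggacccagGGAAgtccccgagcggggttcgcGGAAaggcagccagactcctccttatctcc
EPHA4, chr2:221574203-221574452, minus strand: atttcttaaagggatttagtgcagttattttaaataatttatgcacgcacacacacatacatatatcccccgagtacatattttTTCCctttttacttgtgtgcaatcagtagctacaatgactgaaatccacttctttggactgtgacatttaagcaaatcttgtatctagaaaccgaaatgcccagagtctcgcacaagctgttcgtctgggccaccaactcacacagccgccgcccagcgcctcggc
These letters occurred 6 times in the EPHA5 window, 4 times in the EPHA3 window and 1 time in the EPHA4 window. The longer form AGGAAG, which contains GGAA, occurred 1 time, in the EPHA5 window. EPHA5 and EPHA4 each have a further RefSeq start, whose windows, not shown, held GGAA 0 times and 1 time. A core this short is common: counted on both strands, GGAA was in 92.7% of 35116 RefSeq windows of this length and in 15 of the 19 windows of the 13 receptors that were matched, while AGGAAG was in 28.7% of all windows and 3 of the 19. The longer ETS motif CCGGAAGT, which also contains GGAA, was in 3.42% of all windows and in 0 of the 19. A match in these windows describes the letters and shows no binding.

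EPHA5, a receptor best known from axon guidance, had 3056 counts in the parental DMSO library and 2659 in the parental E2 library. In clone 1 the counts were 55 with DMSO and 28 with E2, and in clone 2 they were 33 and 24. In CPM, scaled by trimmed mean of M-values (TMM), this was 103 and 71.1 in the parental line against 0.820 to 1.54 in the clones, with no overlap. In DMSO, clone 1 held 1.49% of the parental level (exact 95% interval 1.12 to 1.95%) and clone 2 held 1.10% (0.754 to 1.54%). In E2 the remaining shares were 1.35% (0.896 to 1.96%) and 1.15% (0.738 to 1.72%). These intervals cover counting error only. On the log2 CPM scale, with a prior count of 2, the clones were lower by -6.22 ± 0.30 (SD, n = 2 clones) in DMSO and by -6.23 ± 0.15 in E2, about 74.5-fold and 74.8-fold. EPHA5 entered through this contrast, so the values are a description and carry no test. It ranked first by this fall among the 12367 genes that averaged 2 CPM or more, with a fitted log2 difference of -6.28, and the next gene was PLXDC2 at -4.56, which had 32.8 and 48.4 CPM in the parental line and 0.102 to 5.38 CPM in the clones. Below that mean, 5 tested genes had a larger fitted fall. In a bulk library, fewer cells that express a gene and less of its RNA per cell cannot be told apart.

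The antisense transcript EPHA5-AS1 was also uneven, while EPHA1-AS1 had 0 to 3 counts per library and is not read further. It had 148 counts in parental DMSO and 82 in parental E2, and 2 to 4 counts in each clone library. The clones thus held 1.37 to 3.13% of the parental level, with counting intervals that reach from 0.165 to 11.7%. In the RefSeq table EPHA5-AS1 starts on the opposite strand at position 65669961 of chromosome 4, between the EPHA5 starts at 65670489 and 65669488, and in GENCODE v29 535 of its 1177 exonic bases lie over EPHA5. Whether counting used the strand is not given in the sources used here, so reads of the pair in that overlap cannot be told apart. Among the 5 RefSeq neighbours of EPHA5 on either side in the count table, 3 of 10 passed the filter on low counts: EPHA5-AS1, CENPC and ADGRL3. CENPC, which encodes a centromere protein, stayed between 21.7 and 26.9 CPM in all 6 libraries. ADGRL3, an adhesion receptor gene, had 9.18 and 7.05 CPM in parental cells, 29.9 and 16.9 CPM in clone 1 and 6.97 and 1.78 CPM in clone 2, in the order DMSO and E2, so its clone and parental values overlapped.

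**Figure D1:**
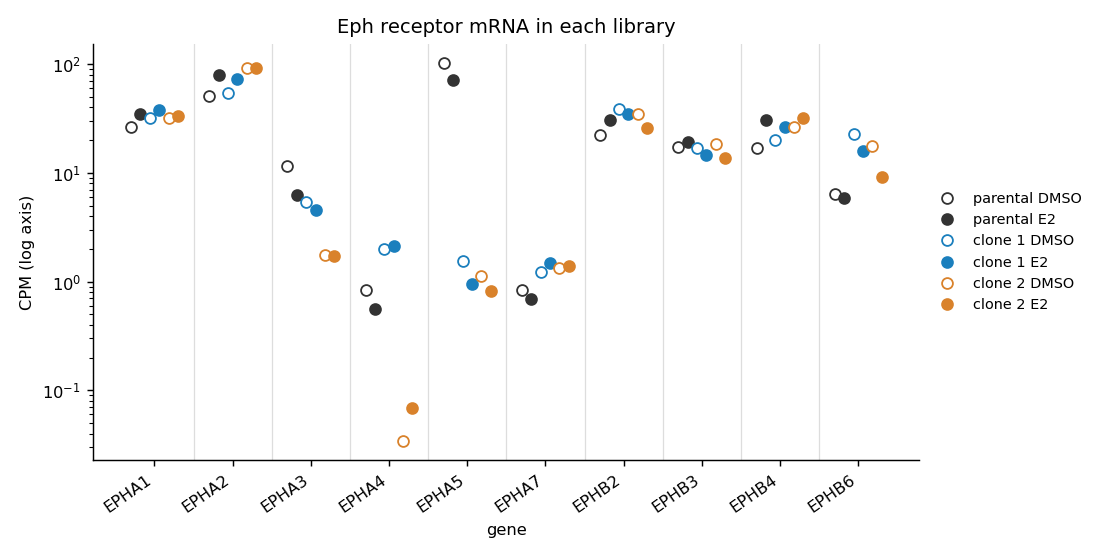
Level of each of the 10 Eph receptors in each of the 6 libraries, in CPM on a log axis. Open symbols are DMSO and filled symbols E2, 1 point per library and no averaging. EPHA5 lies at 103 and 71.1 CPM in the parental line and at or below 1.54 CPM in the clones, and EPHA4 lies below 0.1 CPM in clone 2 alone.

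Over the 10 receptors, 2 had all 4 clone libraries below both parental libraries (EPHA5 and EPHA3), 2 had them above (EPHA7 and EPHB6), and 6 overlapped. Of all 15611 genes tested, 7.82% lay below in this way and 8.53% above. The median log2 difference, clones minus parental, was 0.16 over the 10 receptors and 0.01 over all genes tested. A fall of at least 2-fold in all 4 clone-to-parental differences was seen for EPHA5 alone, against 0.436% of all genes. In clone 2 taken alone, EPHA3 and EPHA4 were also at least 2-fold below the parental line in both treatments. Since the rule used this contrast for EPHA5, nothing is read from these counts.

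Among the other A-class receptors, EPHA3, which binds ephrin-A5 with high affinity, was at 11.5 CPM in parental DMSO and 6.25 in parental E2. It was at 5.44 and 4.59 CPM in clone 1 and at 1.78 and 1.71 CPM in clone 2. All clone values were below the parental ones, and clone 2 was below clone 1. The log2 difference from the parental line was -1.86 ± 1.12 (SD, n = 2 clones) in DMSO and -1.14 ± 0.99 in E2, and in both treatments the clones differed from each other by more than clone 1 differed from the parental line. EPHA4 had 0.840 and 0.561 CPM in parental cells, 1.98 and 2.13 in clone 1 and 0.0341 and 0.0683 in clone 2, which places the clones on opposite sides of the parental line. EPHA7, another receptor with known roles in the nervous system, was low everywhere, at 0.840 and 0.695 CPM (25 and 26 counts) in the parental line and 1.23 to 1.47 CPM (39 to 44 counts) in the clones. Its log2 difference was 0.57 ± 0.08 in DMSO and 0.99 ± 0.05 in E2 (SD, n = 2 clones). In each treatment both clones are set against the same parental library, of 25 or 26 counts, so the SD leaves out its error.

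EPHA2 and EPHA1 were the A-class receptors with sizeable mRNA in every library. EPHA2, a receptor abundant in many epithelia and carcinomas, had 51.4 and 80.0 CPM in parental cells, 53.8 and 72.9 in clone 1 and 91.7 and 91.3 in clone 2 (DMSO and E2). Its lowest values were the DMSO libraries of the parental line and clone 1, and the groups overlapped. EPHA1, also known from epithelia, had 26.3 and 34.7 CPM in the parental line and 32.0 to 37.5 CPM in the clones, a total range of 1.43-fold. Outside the 10 receptors, EPHA6 (5.60 to 8.77 CPM) and EPHA10 (3.16 to 6.35 CPM) overlapped between clones and parental line, and EPHA8 and EPHB1 stayed below 0.5 CPM.

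In the B class, EPHB6 stood apart from the other 3. EPHB6 lacks kinase activity and is thought to act through its partners. It had 6.42 and 5.88 CPM in parental cells, 22.6 and 15.8 in clone 1 and 17.6 and 9.19 in clone 2, with every clone library above both parental ones. The log2 difference was 1.62 ± 0.25 in DMSO and 1.03 ± 0.55 in E2 (SD, n = 2 clones), or 3.08-fold and 2.04-fold. EPHB2, which with EPHB3 positions cells along the intestinal crypt, had 22.3 and 30.6 CPM in parental cells, 38.6 and 34.4 in clone 1 and 34.6 and 25.9 in clone 2. EPHB3 ran from 13.8 to 19.4 CPM, and EPHB4, the ephrin-B2 receptor of venous endothelium, ran from 16.9 to 32.0 CPM. All 3 overlapped between the clones and the parental line.

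Levels were compared between receptors as CPM per kb of exon, with all 14 Eph receptors of the table in the sum. EPHA2 ranked first in all 6 libraries, at 27.7 to 45.5% of the summed level. EPHA5 made up 22.3% in parental DMSO, where it ranked 2, and 12.8% in parental E2, where it ranked 3. In the clones it made up 0.165 to 0.355% and ranked 11 or 12. EPHB6 went the other way, from 3.42 and 2.59% in the parental line (ranks 9 and 7) to 4.52 to 12.8% in the clones (ranks 3 to 5). The sum without EPHA5 was 36.4 CPM per kb in parental DMSO, below the other 5 libraries at 43.8 to 52.6, and it was 49.4 in parental E2, inside the clone range. With EPHA5 the sums were 46.8 and 56.6 in the parental line and 44.0 to 52.8 in the clones, which overlap. The A class held 75.7 and 72.3% of the sum in the parental line and 60.3 to 70.2% in the clones. These shares include EPHA5, which was chosen by this contrast, so no shift of the class is read from them. Without EPHA5 the A-class sum in parental E2 was 33.7 CPM per kb, inside the clone range of 26.4 to 35.4. In parental DMSO the A-class sum without EPHA5 lay below that range.

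**Figure D2:**
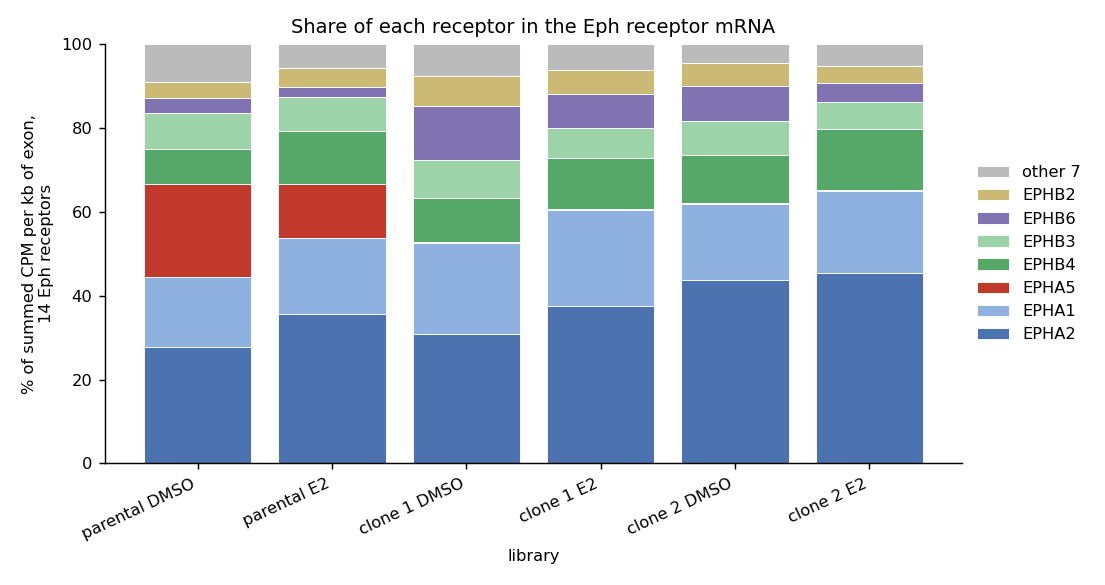
Composition of the Eph receptor mRNA of each library, as the percent of the summed CPM per kb of exon over 14 receptors, 1 bar per library. EPHA5 takes 22.3% and 12.8% of the parental bars and under 0.4% of each clone bar, while EPHA2 is the largest segment of each bar.

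The ligands were measured in the same libraries. All 8 ephrin genes passed the filter, and 1 had its 4 clone libraries below both parental ones (EFNA3), 2 had them above (EFNA5 and EFNB2) and 5 overlapped, with a median log2 difference of 0.05. Over all genes tested 7.82% lay below and 8.53% above, and with 8 genes nothing is read from these counts. EFNB2, the main ligand of EPHB4, had 25.6 and 18.9 CPM in parental cells, 51.0 and 52.9 in clone 1 and 67.6 and 43.7 in clone 2. This was 1.20 ± 0.29 higher on the log2 scale in DMSO and 1.34 ± 0.20 in E2 (SD, n = 2 clones). EFNA5, which binds EPHA5 and EPHA3 among others, was at 142 and 176 CPM in the parental line and 199 to 234 CPM in the clones, a log2 difference of 0.55 ± 0.08 in DMSO and 0.30 ± 0.16 in E2. EFNA3 was at 9.61 and 8.55 CPM in the parental line and 5.79 to 7.42 CPM in the clones. EFNB1 (10.5 to 13.6 CPM) and EFNB3 (19.9 to 29.9 CPM) overlapped. Ephrin-A mRNA was present where EPHA5 mRNA was nearly lost: summed ephrin-A levels were 66.1 and 59.5 CPM per kb in the parental line and 68.6 to 75.0 in the clones. Ephrin-B sums were 17.0 and 13.7 in the parental line and 19.7 to 26.7 in the clones. No test was made of these differences either.

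**Figure D3:**
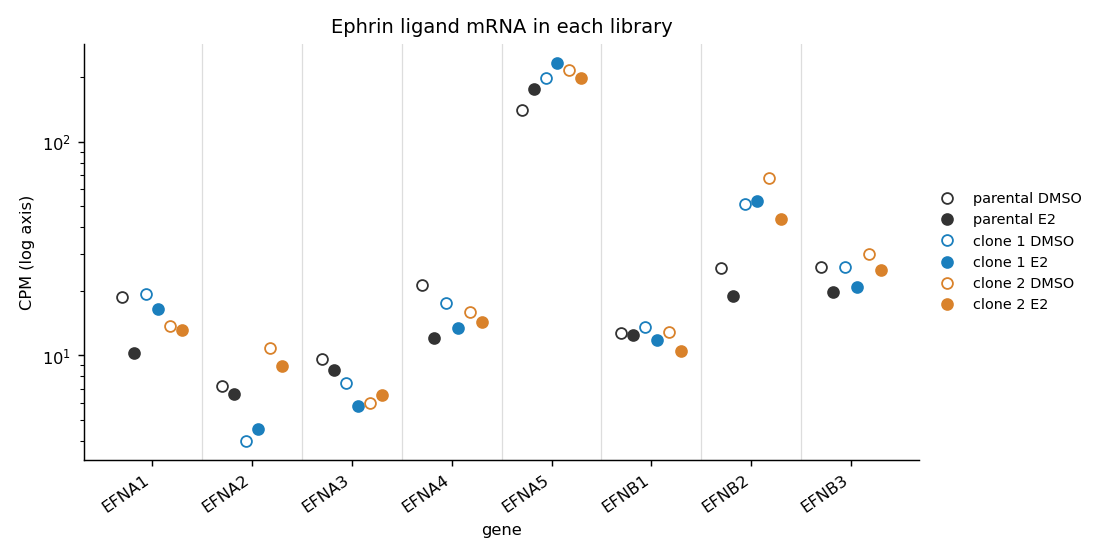
Level of each of the 8 ephrin genes in each of the 6 libraries, in CPM on a log axis, with open symbols for DMSO and filled symbols for E2. For EFNB2 the clones lie at 43.7 to 67.6 CPM and the parental line at 18.9 and 25.6 CPM, and EFNA5 is the gene with the highest CPM in each library.

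The clones were then compared with each other, a contrast that the choice of EPHA5 did not use. The list of receptors was made with earlier results of these data known. With line and treatment in the model and the DMSO and E2 libraries of a line as its samples, 136 genes differed between clone 2 and clone 1 (0.871% of 15611; 38 higher and 98 lower in clone 2), and 1 of the 10 receptors was among them, on the lower side (0.628% of all genes). The labels do not say that these libraries came from separate cultures, so p-values measure only the spread between these samples. EPHA4 was lower in clone 2 by -5.22 on the log2 scale (SE 0.52, edgeR quasi-likelihood test, Benjamini-Hochberg adjusted p = 0.0131). It had 71 and 62 counts in clone 1 and 1 and 2 in clone 2, in DMSO and E2, too few to be tested when 10 counts are required in every library. Clone 2 held 1.72% of the clone 1 level in DMSO (exact 95% interval 0.0430 to 9.92%) and 3.22% in E2 (0.381 to 12.1%). Clone 1 itself was above the parental line, at 236% in DMSO (148 to 388%) and 379% in E2 (228 to 654%).

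EPHA3 was in the same direction as EPHA4 and did not pass: its log2 difference was -1.52 (SE 0.27, edgeR quasi-likelihood test, Benjamini-Hochberg adjusted p = 0.0918). It passed with no filter on low counts, with DESeq2 and in a fit of the 4 clone libraries alone. In counts, clone 2 had 52 and 50 EPHA3 reads and clone 1 had 195 and 134, or 32.6% and 37.2% of the clone 1 level. EPHA2 (0.56) and EPHB6 (-0.55) had an unadjusted p under 0.05 and were not called. The fit of the clone libraries alone, which has 1 residual degree of freedom and called 2723 genes, also called EPHA2, EPHB4 and EPHB6. The fit on all 6 libraries called 136 genes, and with so many more called here nothing is read from these calls. EPHA5, at -0.35, was not called, and the other 5 receptors lay between -0.27 and 0.34. Among the ligands 0 of 8 passed. EFNA2, an ephrin-A, was at 10.8 and 8.88 CPM in clone 2 and at 3.96 and 4.52 in clone 1, with 7.16 and 6.63 in the parental line between them. Its log2 difference was 1.21 (SE 0.20, edgeR quasi-likelihood test, Benjamini-Hochberg adjusted p = 0.0695), and it passed under the same 3 alternatives as EPHA3.

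**Figure D4:**
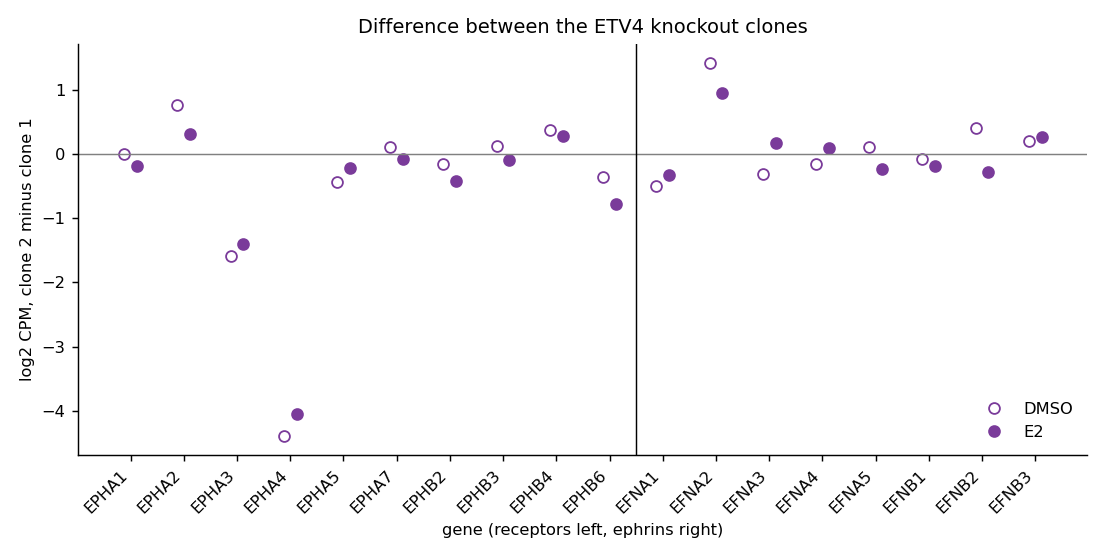
Difference in log2 CPM between ETV4 KO clone 2 and clone 1 for the 10 receptors (left) and 8 ephrins (right), in DMSO (open) and E2 (filled), with 0 as no difference. EPHA4 lies lowest in both treatments, followed by EPHA3, and EFNA2 lies highest.

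Estradiol was the other contrast that the choice of EPHA5 did not use. Over the 6 libraries and with genotype in the model, 176 genes were called (1.13% of 15611; 141 higher and 35 lower in E2), and 0 of the 10 receptors, with 2 of them at an unadjusted p under 0.05 against 3180 of all genes, and 0 called by DESeq2. With the line as a replicate block 2.46% of all genes were called, and again 0 receptors. The hormone did act on its known targets: PGR, the progesterone receptor gene, went from 1.61 to 7.31 CPM in DMSO to 34.8 to 71.5 CPM in E2, a log2 rise of 3.94 (SE 0.38, edgeR quasi-likelihood test, Benjamini-Hochberg adjusted p = 0.00772). GREB1, a further estrogen target, rose by 2.96. ESR1, the estrogen receptor gene, was checked beside them. With E2 its level was lower in each line, by -0.37 (parental), -0.45 (clone 1) and -0.72 (clone 2), and it was not called. The Eph receptor closest to a call was EPHA5, whose E2 libraries lay below the DMSO library of the same line in 3 of 3 lines, by -0.53 (parental), -0.64 (clone 1) and -0.43 (clone 2). Its fitted log2 difference was -0.56 (SE 0.16, edgeR quasi-likelihood test, Benjamini-Hochberg adjusted p = 0.162). With GC correction the parental difference was -0.28. EPHB4 was higher with E2 in 3 of 3 lines, by 0.87 (parental), 0.38 (clone 1) and 0.29 (clone 2). Its fitted difference was 0.51 (SE 0.18, edgeR quasi-likelihood test, Benjamini-Hochberg adjusted p = 0.205), and GC correction took the parental value to 0.54. Without clone 2, 3353 genes were called, against 176 with all lines, and EPHA5 (-0.57), EPHB4 (0.63) and EPHA2 (0.54) were among them. The result thus rests on which clone is in the fit, and with so many genes called nothing is read from these calls. The fit without clone 2 has 1 residual degree of freedom and no GC correction. The GC content was 38.8% for EPHA5, 60.8% for EPHB4 and 60.3% for EPHA2. GC correction took the parental EPHA2 value from 0.64 to 0.33. Without clone 1, 745 genes were called and without the parental line 49, each with 0 receptors.

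EPHB6 was lower with E2 in each line, by -0.13 (parental), -0.51 (clone 1) and -0.93 (clone 2), with a fitted difference of -0.51 (SE 0.25) that was not called. EPHA1 and EPHA3 also had the same sign in all 3 lines, which makes 5 of 10 receptors, against 52.9% of all genes. In 4 receptors both clones went against the parental line (13.1% of all genes): EPHB2 was 0.46 higher with E2 in the parental line and lower by -0.16 and -0.42 in the clones, EPHB3 was 0.18 higher and lower by -0.20 and -0.41, and EPHA4 and EPHA7 had the reverse signs. After GC correction the parental values of EPHB3 and EPHA7 became -0.19 and 0.02, the sign of the clones, while that of EPHB2 stayed positive at 0.27. The test of the difference in E2 effect between genotypes called 0 of 15611 genes (0%), where 1190 genes and 0 of the receptors had an unadjusted p under 0.05. DESeq2 called 29 genes, 0 of them receptors. The value of EPHB2, clones minus parental, was -0.73 (SE 0.32, edgeR quasi-likelihood test, Benjamini-Hochberg adjusted p = 0.617). With the line as a replicate block, which leaves 1 residual degree of freedom and called 2470 genes (15.8%), EPHB2 passed at -0.74 (edgeR quasi-likelihood test, Benjamini-Hochberg adjusted p = 0.00903), and with the block and GC correction together it was -0.58 (adjusted p = 0.0433 by the same edgeR test).

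**Figure D5:**
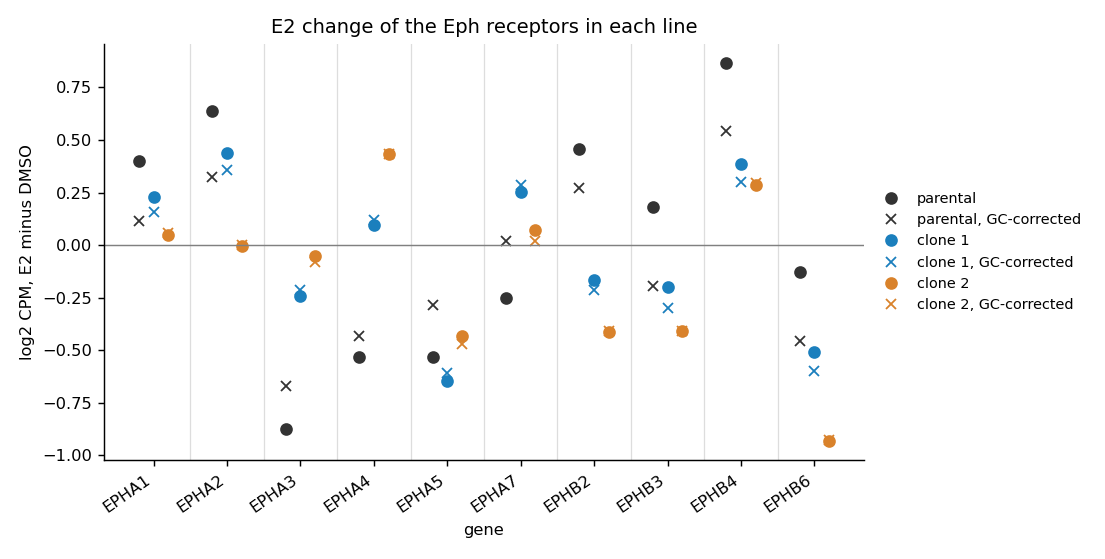
Difference in log2 CPM between E2 and DMSO for the 10 receptors in each line (circles), with the same difference after correction for GC content (crosses) and 0 as no difference. EPHB2 lies at 0.46 in the parental line and below 0 in both clones, and EPHA5 lies below 0 in all 3 lines before and after correction.

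Of the 8 ephrins 0 were called for E2, and 7 had a negative log2 difference, with a median of -0.25 against -0.02 over all genes tested. Of all 15611 genes 8083 had a negative value, and with 8 ephrins nothing is read from the count of signs. EFNA4 had the lowest value, at -0.46 (SE 0.17), going from 21.4 to 12.0 CPM in parental cells, 17.7 to 13.4 in clone 1 and 15.9 to 14.3 in clone 2. EFNA1, the usual partner of EPHA2, went from 18.7 to 10.3 CPM in parental cells, 19.4 to 16.5 in clone 1 and 13.8 to 13.2 in clone 2. Its E2 difference between genotypes was 0.70 and was not called. With the replicate block it was 0.71 and passed (edgeR quasi-likelihood test, Benjamini-Hochberg adjusted p = 0.0256). The replicate block fit called 1 of the 8 ephrins and 15.8% of all genes tested, so nothing is read from that call. The E2 fit without clone 2 called EFNA1 (-0.55) and EFNA4 (-0.61). That fit has 1 residual degree of freedom and called far more genes than the fit with all lines. Nothing is read from these calls.

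The proteins that carry or cut Eph signals were followed through 5 lists that held 44 tested genes: exchange factors and GTPase-activating proteins, kinases and adaptors, phosphatases, the proteases that cleave receptors and ephrins, and PDZ partners of the B class. For E2, 0 of the 44 were called in either direction and 16 had an unadjusted p under 0.05, beside 3180 of all 15611 genes. Among the 8 cleavage genes, too few to read signs from, 7 had a negative log2 difference, beside 8083 of all 15611 genes. ADAM10, the protease that sheds ephrins and receptors, had the lowest, with 346 and 264 CPM in the parental line (DMSO and E2), 307 and 203 in clone 1 and 339 and 200 in clone 2, or -0.59 (SE 0.13, edgeR quasi-likelihood test, Benjamini-Hochberg adjusted p = 0.103). Between the clones 0 of the 44 were called and 4 had an unadjusted p under 0.05, beside 1892 of all 15611 genes. For the difference in E2 effect between genotypes 0 of the 44 were called. With the replicate block 5 of the 44 were called, a smaller share than the 15.8% of all genes, so nothing is read from that count. Of these 2 were higher in the clones, NCK1 (0.89), an adaptor that links receptors to actin, and PSENEN (0.62), a γ-secretase subunit. The other 3 were lower, INPPL1 (-0.90), a lipid phosphatase, VAV2 (-0.82), an exchange factor, and CBL (-0.62), a ubiquitin ligase.

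The genes whose pattern over the 6 libraries was nearest to that of EPHA5 were found by the root-mean-square distance of centred log2 CPM, over the other 12366 genes that averaged 2 CPM or more. They were GJA1 (1.06), which encodes the gap junction protein connexin 43, ALDH3A1 (1.08), an aldehyde dehydrogenase gene, TUNAR (1.11), a long non-coding RNA, FAM208A (1.35) and ETV4 itself (1.56). No gene lay within 1 log2 unit. GJA1 had 886 CPM in parental DMSO, 19.6 in clone 1 DMSO and 54.3 in clone 2 DMSO. It shared the high parental level, with clone 2 above clone 1 where EPHA5 had the clones the other way round. All of these patterns rest on the same 6 libraries and on the contrast that brought EPHA5 in.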

How the data were processed

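The deposited count table holds whole-number reads per gene symbol for 6 libraries, made by the authors. Per the submitters' processing notes, HISAT2, SAMtools, Subread and DESeq2 were used with the hg19 build. Their settings, the annotation and the use of strand in counting are not given in the sources used here. The deposited normalized table was not used. Column names that read DMOS and ER were taken as DMSO and E2. Libraries were poly(A)-selected with a stranded kit, per the labels' protocols.

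Counts were scaled by TMM in edgeR 4.0.16 (R 4.3.3), and filterByExpr kept 15611 of 26364 genes, all 10 receptors included. E2, its interaction with genotype, and clone 2 against clone 1 were tested on all 6 libraries with the edgeR quasi-likelihood test, Benjamini-Hochberg adjusted over all genes tested and an adjusted p of 0.05 as threshold. Standard errors were computed as the absolute log2 difference divided by the root of F. The knockout contrast was described only, with a prior count of 2. Its SDs over the clones leave out the error of the parental library, which both differences share. Libraries of a line pair across treatments, per the clone names in the labels: the difference between the clones in DMSO and that in E2 correlated at 0.63 over genes. Exon lengths and GC content came from GENCODE v29 (GC for 93.6% of tested genes), and GC correction by lowess (span 0.3) was added after seeing the data. Promoters and gene order came from RefSeq (GRCh38.p14), a build other than that of the reads. The E2, interaction and clone fits were also run on simulated counts, which held no GC trend and no line differences beyond the changes put in. The replicate block and the fits with a line left out were not run on them. Alternatives were median-ratio scaling, total counts, other prior counts, no filter, DESeq2 1.42.0, a minimum of 10 counts per library, the replicate block, and leaving out a line.

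All 10 receptors, the other Eph receptors, the ephrins and the antisense rows held in the table (EPHA1-AS1 and EPHA5-AS1) were named. Of the signalling lists only called genes and the gene nearest to a call were named, and the lists and the receptors were chosen with earlier results of these data known. ADGRL3, CENPC, PLXDC2, MAP2 and ADAM10 were named after their values were seen.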

Additional observations from a re-analysis of the deposited data

Results flagged for a closer look

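In 4 receptors both clones had an E2 difference opposite in sign to that of the parental line. The difference in E2 effect, clones minus parental on the log2 scale, was 0.67 for EPHA4, 0.44 for EPHA7, -0.73 for EPHB2 and -0.49 for EPHB3. None of the 4 passed the edgeR quasi-likelihood test after Benjamini-Hochberg adjustment on all 6 libraries, and EPHB2 alone passed with the replicate block. EPHA4 rests on 1 and 2 counts in clone 2 and on 25 and 21 in the parental line, in DMSO and E2. For EPHA7 and EPHB3 the opposite signs were no longer there after GC correction, which was made in every library.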

How the results depend on the processing

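EPHA5 stayed lower in both clones under every alternative run, and EPHA4 stayed called between the clones except with at least 10 counts in every library, which removes it. The parental line has 1 library per treatment, so no fit separates clone from genotype, and low counts limit EPHA4 and EPHA7. The E2 effect called 176 genes, 1115 with DESeq2, 384 with the replicate block, 617 with block and GC correction, and 49 to 3353 with a line left out. The interaction called 0 genes, 29 with DESeq2, 2470 with the replicate block and 1853 with block and GC correction. With a clone left out it has no residual degrees of freedom and gives values alone. The clone comparison called 136 genes, 236 with no filter, 63 with at least 10 counts in every library, 369 with DESeq2 and 2723 without the parental line. Among genes that averaged 2 CPM or more, those at least 2-fold lower in all differences between clones and parental line numbered 30, and 87 to 112 with a clone left out.

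Signs turned in values that were not called. With a line left out, the E2 difference ran from -0.40 to 0.094 for EPHA4 (positive without the parental line), from -0.11 to 0.16 for EPHA7 (negative without clone 1), from -0.29 to 0.14 for EPHB2 and from -0.22 to 0.034 for EFNA2 (both positive without clone 2). The interaction with a clone left out ran from -0.11 to 0.10 for EPHA5, from -0.39 to 0.33 for EPHA8, from -0.17 to 0.30 for EFNA2, from -0.19 to 0.29 for EFNA3 and from -0.20 to 0.49 for EFNB2. With all lines, the EFNA2 interaction was 0.47 with GC correction, 0.042 with the replicate block and 0.50 with both, and that of EFNB1 was 0.062 with GC correction, with or without the block. Between the clones, EPHB3 was -0.14 and EFNA5 0.022 with GC correction. The cause was not tested. The replicate block, with the DMSO and E2 libraries of a line paired, changed no call among the 10 receptors other than EPHB2.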
